A study of Mus musculus with 6 samples.

Results

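The Reg family, named for regenerating islet-derived proteins, comprises small secreted proteins with a C-type lectin fold. All 7 members listed for the mouse, Reg1, Reg2, Reg3a, Reg3b, Reg3d, Reg3g and Reg4, were found by symbol among the 24421 genes of the deposited count table. The data are RNA sequencing of isolated pancreatic islets of the strain background C57BL/6J. One group of 3 libraries was labelled control, with no further genotype. The other 3 carried the genotype label C57.DhpsloxP.MIP1-CreERT and were described as a knockout restricted to β cells, the insulin-secreting cells of the islet. The label joins a floxed allele of Dhps, which encodes deoxyhypusine synthase, to a drug-inducible Cre recombinase under a mouse insulin promoter, so the recombinase is meant to act in β cells alone. The labels give no age, sex, drug schedule, diet or Cre status of the controls, and they do not expand the HF of the sample names or say that libraries came from separate animals, so the p-values below measure the spread between these samples.

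Reg proteins are best known from the exocrine pancreas, where acinar cells release Reg1 with the digestive enzymes, and from the intestine, where Reg3 lectins act against bacteria. Their genes are induced by inflammation and tissue injury, in part through cytokines that activate the transcription factor STAT3, and family members have been studied as growth factors for islet cells. Extl3, an exostosin-like glycosyltransferase of the cell surface, has been described as a Reg receptor.

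Each library held 21027737 to 23249895 counts, and 15954 to 16370 genes had at least 1 count. Dhps, the targeted gene, had 260, 321 and 312 counts in controls 1 to 3, against 266, 271 and 225 among knockout-labelled libraries (log2 fold change −0.07 ± 0.12 SE, adjusted p = 0.742, edgeR). The counts thus did not separate the groups by genotype, and the second group is called knockout-labelled. Control 3 stood apart from the others in acinar transcripts. The 29 acinar digestive enzyme genes took 0.134% of its counts, against 1.31% and 1.26% in controls 1 and 2 and 3.35% to 3.70% in knockout-labelled libraries. Acinar cells are a known source of Reg transcripts, so values are given below with and without control 3. In bulk tissue, fewer cells of a type and less RNA per cell cannot be told apart.

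In mm10, 6 of the 7 genes lie side by side on chromosome 6, from Reg3b at 78370885 to the end of Reg3g at 78468874, a span of 98.0 kb in which the table lists no other gene. Reg4 lies alone on chromosome 3, from 98222156 to 98236748. Each of the 7 gene models has 6 exons, and none of their exons overlaps an exon of another listed gene. Reg3d and Reg3g are on the minus strand and the other 5 on the plus strand. Across the 15 pairs of chromosome 6 genes, coding sequences of GENCODE transcripts were between 54.1% and 78.7% identical over the alignment, with Reg1 and Reg2 the closest pair at 78.7%. Within the Reg3 group the 6 pairs ranged from 65.0% to 75.9%. No 50-base stretch of any member's transcript occurred in a transcript of another gene; read length is not given in the sources used here.

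**Figure D1:**
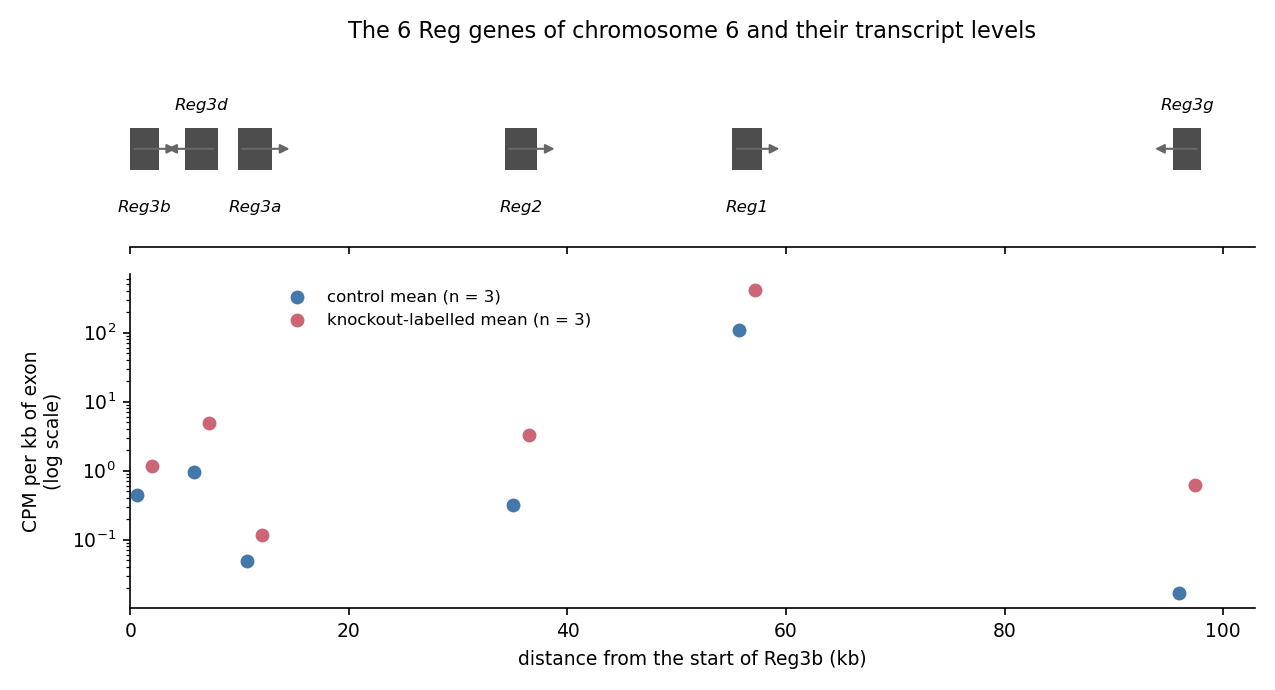
Upper panel, position and direction of transcription of the 6 Reg genes of chromosome 6, as distance from the start of Reg3b in kb. Lower panel, mean level per length in 3 control and 3 knockout-labelled libraries on a log scale, where Reg1 stands above its neighbours at 110.4 and 421 CPM per kb and the other genes stay at or under 4.84.

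The sequence before each start of transcription is shown for the 4 members with enough counts to test, because these are neighbours whose levels are compared below. The windows come from RefSeq on GRCm38.p6, the assembly of mm10, and the starts of all 7 RefSeq windows equal the starts of the deposited gene models. Each line gives the 250 bases that end just before the start, 5′ to 3′ on the gene's own strand. Capitals mark matches to a TATA box (TATAAA), to a STAT-type motif (TTCNNNGAA), and to a pair made of an E-box (CANNTG), 6 bases and TTCCCA. Reg1 is at chr6:78425733-78425982, Reg2 at chr6:78404905-78405154, Reg3d at chr6:78378866-78379115 on the minus strand, and Reg3b at chr6:78370635-78370884.
Reg1: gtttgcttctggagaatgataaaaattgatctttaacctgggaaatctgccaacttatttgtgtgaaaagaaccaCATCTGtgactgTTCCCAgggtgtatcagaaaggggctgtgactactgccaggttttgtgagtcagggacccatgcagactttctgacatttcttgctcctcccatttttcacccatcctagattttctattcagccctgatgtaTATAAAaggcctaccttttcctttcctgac
Reg2: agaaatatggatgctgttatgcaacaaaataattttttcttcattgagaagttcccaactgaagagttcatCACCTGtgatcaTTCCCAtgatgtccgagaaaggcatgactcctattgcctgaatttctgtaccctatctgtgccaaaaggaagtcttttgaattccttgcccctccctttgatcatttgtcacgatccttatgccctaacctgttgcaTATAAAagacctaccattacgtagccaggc
Reg3d: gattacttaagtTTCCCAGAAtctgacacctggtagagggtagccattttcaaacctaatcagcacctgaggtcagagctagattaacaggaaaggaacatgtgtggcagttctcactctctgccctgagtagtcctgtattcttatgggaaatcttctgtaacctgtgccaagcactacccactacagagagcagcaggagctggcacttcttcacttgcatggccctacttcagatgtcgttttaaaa
Reg3b: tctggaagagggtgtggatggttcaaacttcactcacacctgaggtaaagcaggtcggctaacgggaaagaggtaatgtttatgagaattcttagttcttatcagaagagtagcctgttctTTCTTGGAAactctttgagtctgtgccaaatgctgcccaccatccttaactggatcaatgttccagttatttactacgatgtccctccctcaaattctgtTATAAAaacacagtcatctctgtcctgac

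Reg1 and Reg2 share both the TATA box, at -30 from the start in each, and the E-box pair, which begins at -175 in Reg1 and -179 in Reg2. The E-box with TTCCCA is a form of the bipartite site of PTF1, the transcription factor complex of acinar cells, and the 6-base spacing was chosen after these windows had been read. On both strands, this pair occurred in 0.088% of 32851 promoter windows of the same length and in none of the windows of 25 acinar digestive enzyme genes. The STAT-type motif was present in Reg3b, at -129, and in Reg3d, at -238, and in 7.02% of all windows. A TATA box was found in Reg1, Reg2, Reg3b and Reg3g and in 12.4% of windows, and an E-box, which the pair contains, in all 7 members and 66.2% of windows. A match describes letters only and does not show a bound site.

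Reg1, the main secretory Reg protein of acinar cells, supplied nearly all Reg transcripts. Its counts were 2006, 3604 and 294 in controls 1 to 3, against 6204, 9182 and 5258 in knockout-labelled replicates 1 to 3. On the CPM scale (counts scaled to library size with TMM factors) these were 92.8, 150.2 and 11.6 against 273, 431 and 267. All 3 knockout-labelled libraries lay above all controls, and the lowest of them was 1.78 times the highest control. The means were 84.9 ± 69.6 and 324 ± 93.3 CPM (SD, n = 3 each), a ratio of 3.82. Per exon length and averaged over the 6 libraries, Reg1 ranked at position 95 of 13736 tested genes. Reg1 made up 97.4% to 99.2% of the summed Reg counts in each library. The 7 members together took 0.00863% ± 0.00727 of counts among controls, against 0.0327% ± 0.0106 in knockout-labelled libraries.

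**Figure D2:**
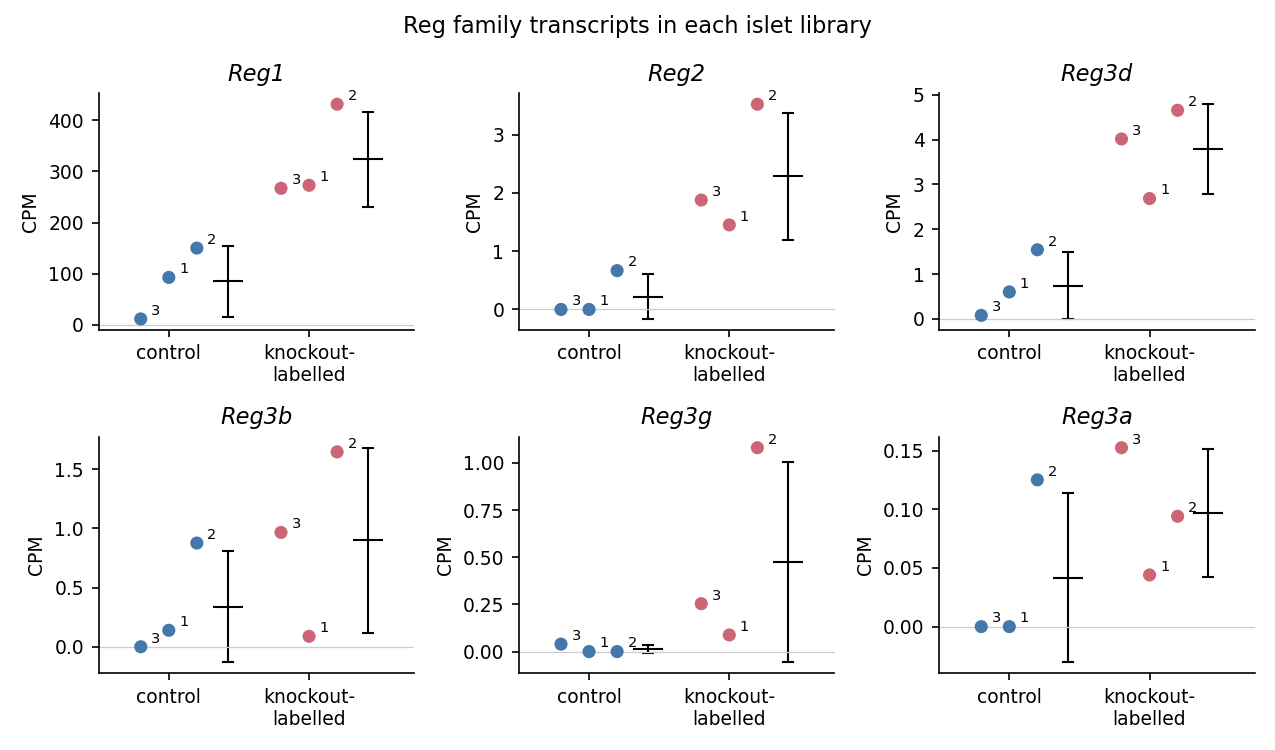
CPM of 6 Reg genes in each library, with replicate numbers beside the points and the mean ± SD (n = 3) at the right of each group. For Reg1, Reg2, Reg3d and Reg3g every knockout-labelled library lies above every control, while Reg3b and Reg3a overlap; Reg4, with no counts, is not drawn.

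Reg2, the closest relative of Reg1, was far rarer. It had 0, 16 and 0 counts in controls 1 to 3, against 33, 75 and 37 in knockout-labelled libraries. Control 2 thus held every Reg2 count of the controls, and the groups did not overlap. The levels were 0.222 ± 0.385 and 2.29 ± 1.09 CPM (SD, n = 3 each). The ratio of the summed, scaled counts was 10.09, with an exact 95% counting interval of 6.00 to 18.1. This interval pools the libraries of each group, so it leaves out the spread between them. It also takes each read as a separate molecule, and no molecular identifiers are described. Reg2 passed the filter on low counts only through the knockout-labelled libraries.

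Reg3d, related to the islet neogenesis-associated protein INGAP, had the same order of controls as Reg1. Its counts were 13, 37 and 2 in controls 1 to 3, against 61, 99 and 79 in knockout-labelled libraries, without overlap. The means were 0.741 ± 0.741 and 3.78 ± 1.004 CPM (SD, n = 3 each). In each group the library with the most Reg1 counts, replicate 2, also had the most Reg3d and Reg2 counts. For every 1000 Reg1 counts there were 6.48 to 10.3 Reg3d counts among controls, against 9.83 to 15.02 in knockout-labelled libraries, and these ranges overlapped. Per 1000 Reg1 counts, Reg2 had 0, 4.44 and 0 in controls 1 to 3, against 5.32, 8.17 and 7.04 in knockout-labelled libraries. These values did not overlap, but control 3 had only 294 Reg1 counts. Its 0 is a limit of detection and cannot show a ratio below those of the knockout-labelled libraries.

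Reg3b and Reg3g, the pancreatitis-associated protein and an antibacterial lectin of the gut, were near the limit of detection. Reg3b had 3, 21 and 0 counts in controls 1 to 3, against 2, 35 and 19 in knockout-labelled libraries, so the groups overlapped. Reg3g had 0, 0 and 1 counts among controls, against 2, 23 and 5 in knockout-labelled libraries. The groups did not overlap for Reg3g, but knockout-labelled replicate 2 held most of its counts. The ratio of the summed, scaled Reg3g counts was 33.4, with an exact 95% counting interval of 5.55 to 1362 that likewise leaves out the spread between libraries. Replicate 2 also had the highest lymphocyte marker sum of the 6 libraries, 61.1 CPM over 7 genes against 6.60 to 16.9 CPM in the others. The part of those cells in the Reg3g and Reg3b values was not tested.

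Reg3a had 0, 3 and 0 counts in controls 1 to 3, against 1, 2 and 3 in knockout-labelled libraries. Reg4, a Reg protein of the digestive tract, had no count in any library, which allows at most 0.0223 CPM over the 134306391 counts of all 6 (3 counts, counting error only). Of the 6 intestinal epithelium markers, Cdx1 and Muc2 were also at 0 in every library. The others were not: Vil1 had 1086 to 1978 counts and Lgr5 had 2 to 10 in each library. Cdx2 and Alpi had 2 and 6 counts over all libraries.

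Ordered by level per exon length in knockout-labelled libraries, Reg1 came first at 421 ± 121 CPM per kb. Reg3d followed at 4.84 ± 1.28, Reg2 at 3.30 ± 1.58, Reg3b at 1.18 ± 1.03, Reg3g at 0.613 ± 0.687 and Reg3a at 0.116 ± 0.0648 CPM per kb (SD, n = 3). The step from Reg1 to Reg3d was far beyond the spread between libraries. For each later pair of neighbours the difference was within the sum of the 2 SDs. That sum ignores that both genes were read in the same libraries, so it does not test the order. In knockout-labelled replicates 1 to 3, Reg3d had 61, 99 and 79 counts, Reg2 33, 75 and 37, and Reg3b 2, 35 and 19. This order held in each of them, while Reg3g and Reg3a rest on few counts. In the controls Reg1 again came first, at 110.4 ± 90.5 CPM per kb, followed by Reg3d at 0.947 ± 0.948.

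No Reg member passed the threshold when the groups were compared. Of the 7 members, 4 had enough counts for the test, and 0 of these 4 had an adjusted p under 0.05 in edgeR's quasi-likelihood test, where 568 of 13736 tested genes (4.14%) rose. At an unadjusted p under 0.05, 3 of the 4 were higher, against 14.9% of all tested genes. All 3 knockout-labelled libraries exceeded all controls for 3 of the 4 tested members, against 16.9% of tested genes. Reg3g, which was not tested, did so too, with 2 counts in the lowest knockout-labelled library and 1 in the highest control. The log2 fold change (knockout-labelled over control) was 1.93 ± 0.64 for Reg1 (SE, 95% interval 0.49 to 3.37, adjusted p = 0.0935). It was 3.31 ± 0.95 for Reg2 (interval 1.198 to 5.43, adjusted p = 0.0625) and 2.35 ± 0.65 for Reg3d (interval 0.89 to 3.801, adjusted p = 0.0576). For Reg3b it was 1.39 ± 1.08 (interval −1.03 to 3.802, adjusted p = 0.449). The median over these 4 was 2.14, beside 0.01 over all tested genes, but Reg2 entered the test only through the group where it was high.

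Calls for Reg1, Reg2 and Reg3d depended on the settings, while Reg3b was called in none of those run. DESeq2 called Reg3d alone (adjusted p = 0.00154, against 0.160 for Reg1 and 0.283 for Reg2, with 7.21% of all genes called higher), and limma-voom called Reg2 and Reg3d (adjusted p = 0.0316 and 0.0413, against 0.0662 for Reg1, with 3.91% of genes called higher). With no filter on low counts, edgeR called Reg1, Reg2 and Reg3d (adjusted p = 0.0410, 0.0300 and 0.0248, with 4.4% of genes called higher). Without control 3 the difference in Reg1 was smaller and passed the threshold (1.40 ± 0.26, adjusted p = 0.0350, with 174 of 13997 genes called higher). In that fit Reg2, Reg3d and Reg3b were at 2.70, 1.79 and 0.78 and were not called. Without control 2, Reg2 passed (adjusted p = 0.0295, with 87 of 13990 genes called higher). Control 2 held every Reg2 count of the controls, so a large fold followed from leaving it out. Taking 3 counts over both remaining controls as the floor, that fold was at least 35.6. It is no bound for the full set of controls, where the ratio of means was 10.3.

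**Figure D3:**
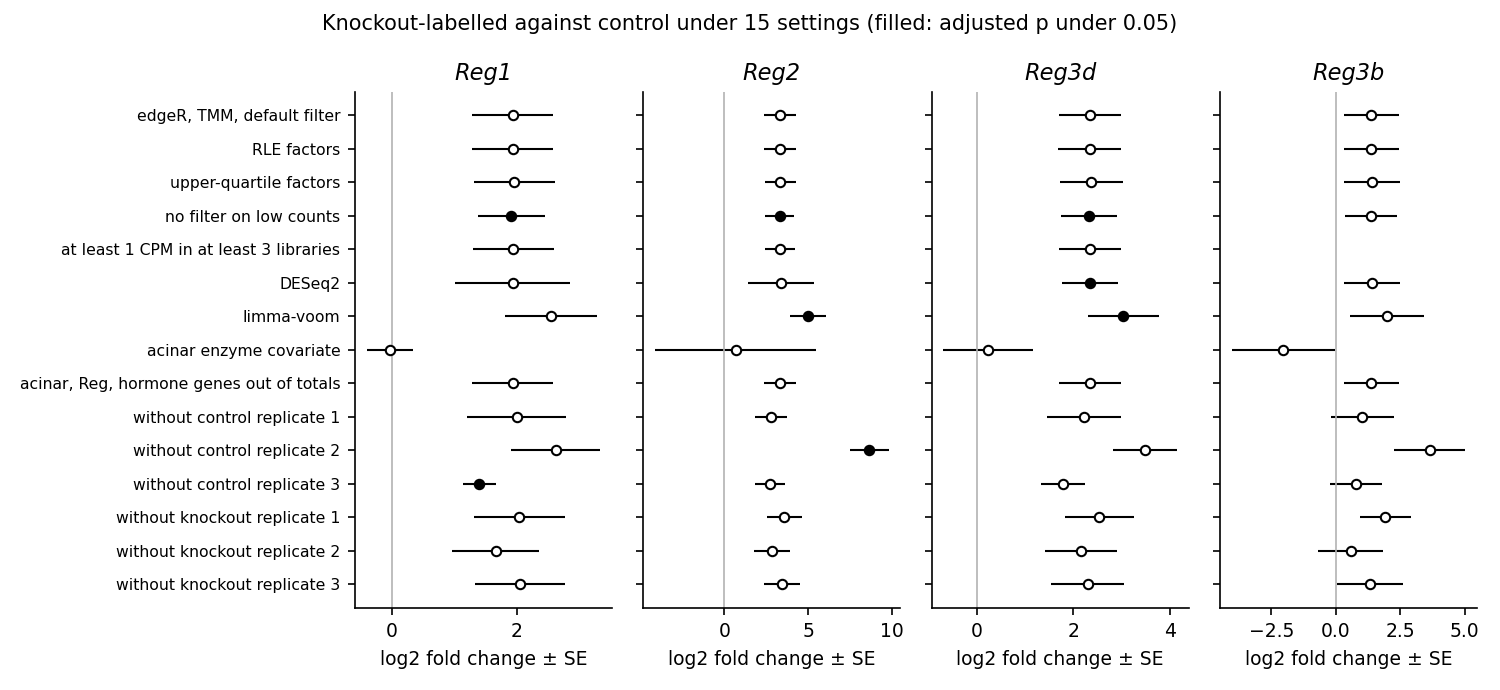
Log2 fold change ± SE of the 4 tested Reg genes, knockout-labelled against control, under 15 settings, with filled points where the adjusted p was under 0.05. The fit with the replicate number as a block, which called Reg1, Reg2 and Reg3d, is not drawn. Reg1 stays between 1.40 and 2.62 in all settings but the fit with acinar enzyme level as a covariate, where it is −0.04; Reg3b is not drawn for the filter at 1 CPM, which removed it.

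Acinar enzyme transcripts differed between the libraries in the same direction as Reg1. All 23 tested acinar digestive enzyme genes were higher in every knockout-labelled library than in every control, against 16.9% of all tested genes. Their median log2 fold change was 1.98 (range 1.62 to 2.52). Of the 23, 1 passed the threshold, the amylase gene Amy1 (2.10 ± 0.36, adjusted p = 0.0169, edgeR), where 4.14% of all tested genes rose. Amy1 passed in 4 of 6 fits that left out 1 library, at 1.72 to 2.46, and not without control 2 or knockout-labelled replicate 1. Reads of amylase, trypsin and elastase genes may be split among close copies, which makes values of single copies uncertain. Carboxypeptidase A1 (Cpa1) was at 508 ± 375 CPM among controls, against 2062 ± 116 CPM in knockout-labelled libraries (adjusted p = 0.0716). Summed over the list, the level was 13955, 12192 and 1216 CPM in controls 1 to 3, against 33403, 36582 and 38028 CPM in knockout-labelled libraries.

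Relative to acinar enzyme transcripts, Reg1 did not separate the groups. For every 1000 acinar enzyme counts, Reg1 had 6.65, 12.3 and 9.57 counts in controls 1 to 3, against 8.17, 11.8 and 7.02 in knockout-labelled libraries. The means were 9.51 ± 2.83 and 8.997 ± 2.49 (SD, n = 3 each). Control 3, with the lowest level of both, lay inside the range of the other 5 libraries. Reg3d had 0.0431, 0.126 and 0.0651 counts for every 1000 acinar enzyme counts in controls 1 to 3, against 0.0804, 0.127 and 0.106 in knockout-labelled libraries, which overlapped too. Reg2, at 0, 0.0547 and 0 against 0.0435, 0.0963 and 0.0494, overlapped through control 2. In control 3, with 30734 acinar enzyme counts, its 0 is a limit of detection. With the log2 acinar enzyme level as a covariate, edgeR gave Reg1 a group difference of −0.04 ± 0.37 (95% interval −0.87 to 0.79, adjusted p = 0.974) and called 0 of all 13736 genes (1429 at an unadjusted p under 0.05). The same fit gave 0.24 ± 0.93 for Reg3d (interval −1.85 to 2.32), 0.66 ± 4.81 for Reg2 and −2.03 ± 2.01 for Reg3b. The acinar level itself did not overlap between the groups, so this fit separates the 2 terms poorly.

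**Figure D4:**
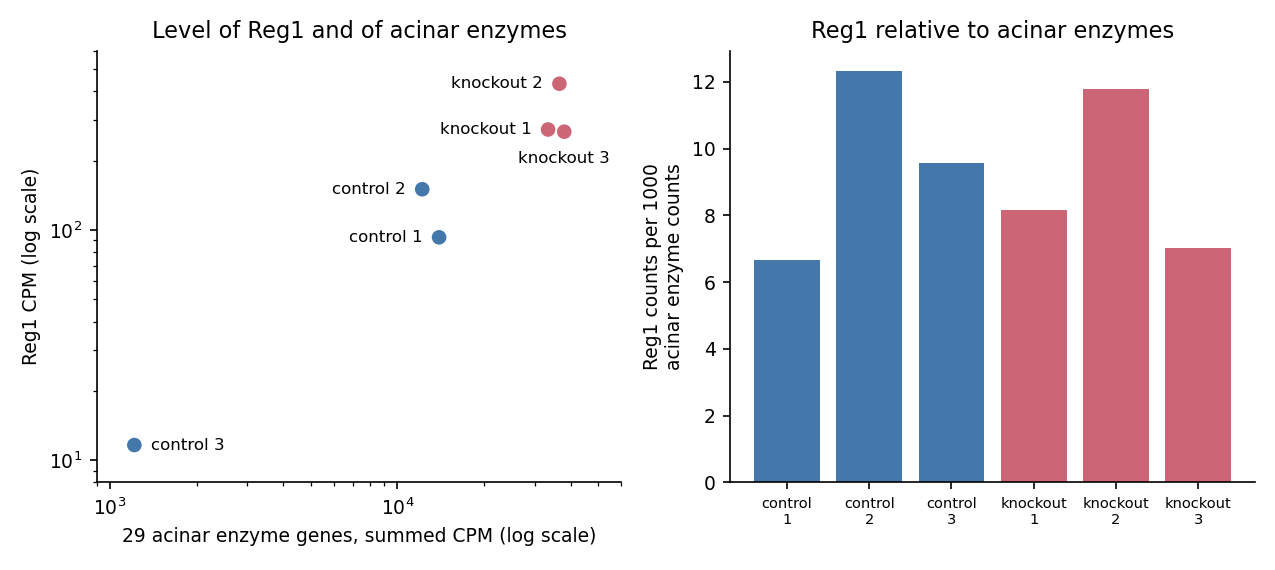
Left, Reg1 CPM against the summed CPM of 29 acinar enzyme genes in each library, both on log scales; control 3 is lowest on both axes and the knockout-labelled libraries are highest. Right, Reg1 counts for every 1000 acinar enzyme counts, from 6.65 in control 1 to 12.3 in control 2, with the knockout-labelled libraries between them.

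The genes whose profile over the 6 libraries was most like that of Reg1 were pancreatic secretory genes. Likeness was the root mean square difference of log2 CPM after centring each gene. It was computed for 9887 genes whose average log2 CPM was 2 or more, leaving out Reg members, predicted genes and symbols that read as dates. The nearest was the pancreatic amylase Amy2b at 0.25 log2 units, followed by the serpin Serpini2 at 0.26 and the zymogen granule glycoprotein Gp2 at 0.28, where the median gene was at 1.73 and Reg1 itself spanned 5.20 log2 units. Reg3d was closest to the scavenger receptor-like Dmbt1 (0.42), the trypsin gene Try10 (0.46) and Serpini2 (0.46), and its distance from Reg1 was 0.34. Reg2 was closest to P-selectin (Selp, 0.95), complement C4b (1.06) and Dmbt1 (1.15), of which Selp and C4b rose (adjusted p = 0.0161 and 0.00892). Leaving out each library, C4b passed in 6 of 6 fits and Selp in 5, all but that without knockout-labelled replicate 1 (2.12, adjusted p = 0.0610). Selp and C4b were picked for their likeness to Reg2 in these same libraries, so their calls give no separate support to the Reg2 difference. Reg3b had no close match, with the kinase gene Stk17b at 1.13, the sulfotransferase gene Chst2 at 1.17 and the leukocyte gene Ptprc at 1.197, against 1.58 for the median gene. Zero counts in Reg2 and Reg3b make their log2 values depend on the prior count of 2.

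Of 15 tested genes for acinar identity and secretory proteins, 3 rose, 0 fell and 12 were not called. All 15 log2 fold changes were above 0, with a median of 1.81. In 11 of the 15 every knockout-labelled library lay above every control, against 16.9% of all tested genes, of which 4.14% rose. The 3 were the trypsin inhibitor Spink1 (2.14 ± 0.54, adjusted p = 0.0463), the cholecystokinin receptor Cckar (2.41 ± 0.50, adjusted p = 0.0284) and clusterin (Clu, 0.94 ± 0.18, adjusted p = 0.0231), a secreted chaperone that duct and other cells also express. Leaving out 1 library at a time, Spink1 and Cckar each passed in 2 of 6 fits and Clu in 3, with log2 fold changes of 1.60 to 2.73, 1.90 to 2.78 and 0.75 to 1.09. DESeq2 did not call Spink1 (2.13, adjusted p = 0.0914). The PTF1 subunit gene Ptf1a, not tested, had 5, 0 and 0 counts in controls 1 to 3, against 7, 6 and 4 in knockout-labelled libraries. Bhlha15, a transcription factor of secretory cells, was at 42.7 ± 13.95 and 44.2 ± 14.6 CPM (0.05 ± 0.27, adjusted p = 0.934). Nupr1, a stress protein gene first found in pancreatitis, was at 30.6 ± 6.34 and 49.5 ± 12.6 CPM (0.70 ± 0.19, adjusted p = 0.0591).

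The proposed receptor Extl3 was expressed in every library and not called. It had 509, 699 and 692 counts in controls 1 to 3, against 516, 507 and 508 in knockout-labelled libraries, or 26.7 ± 2.85 and 24.1 ± 1.57 CPM (log2 fold change −0.15 ± 0.11, 95% interval −0.40 to 0.10, adjusted p = 0.439). Across the list of Reg receptor and inducing cytokine genes, 22 of 28 were tested, of which 2 rose, 1 fell and 19 were not called, with a median of 0.09. Among all 13736 tested genes, 4.14% rose and 361 fell.

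Cytokines and receptors of the interleukin 6 family come first. Il6, the cytokine itself, had 37, 40 and 30 counts in controls 1 to 3, against 151, 97 and 85 in knockout-labelled libraries, with no overlap, and rose by 1.77 ± 0.28 on the log2 scale (adjusted p = 0.0148). The oncostatin M receptor Osmr rose from 3.99 ± 0.600 to 7.79 ± 1.83 CPM (0.96 ± 0.22, adjusted p = 0.0350). Lif, another cytokine of this family, had 36, 12 and 9 counts against 164, 60 and 42 (2.29 ± 0.62, adjusted p = 0.0546). The shared receptor subunit Il6st was at 45.2 ± 1.08 and 60.4 ± 8.11 CPM (0.42 ± 0.11, adjusted p = 0.0529). The interleukin 6 receptor Il6ra was at 59.7 ± 9.48 and 42.9 ± 9.32 CPM (−0.48 ± 0.17, adjusted p = 0.106). Interleukin 22, an inducer of Reg3 genes in gut epithelium, had 0, 1 and 0 counts among controls, against 0, 9 and 5 in knockout-labelled libraries, and its receptor Il22ra1 had at most 8 counts in any library.

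Downstream of these cytokines lie the transcription factor STAT3 and its feedback inhibitor. Stat3 was at 151 ± 29.7 and 129 ± 14.99 CPM (−0.22 ± 0.15, adjusted p = 0.376). Socs3, the STAT3-induced inhibitor of this pathway, had 2220, 4074 and 4658 counts in controls 1 to 3, against 1504, 1867 and 1174 in knockout-labelled libraries, and it fell by 1.10 ± 0.21 on the log2 scale (adjusted p = 0.0244). Of 10 tested STAT3-responsive and acute-phase genes, Socs3 included, 0 rose, 1 fell and 9 were not called. Of all 13736 tested genes, 4.14% rose and 361 fell. The log2 fold changes of these 10 ran from −1.10 to 2.42 with a median of 0.06, and 5 were above 0. The siderophore-binding protein Lcn2 had 20, 8 and 2 counts against 75, 24 and 52 (2.42 ± 0.68, adjusted p = 0.0603). Of the acute-phase genes, Lbp was at 1.77 ± 0.50 (adjusted p = 0.0609) and Fgb at 1.18 ± 0.50 (adjusted p = 0.169). Neither overlapped between the groups, and Saa2 and Orm1 had no counts. Leaving out 1 library at a time, Il6 passed the threshold in 4 of 6 fits, all but those without control 2 and knockout-labelled replicate 1. Socs3 passed in 2, those without control 1 and knockout-labelled replicate 2, and Osmr in 1, that without knockout-labelled replicate 2. Over the 6 fits the log2 fold change was 1.54 to 1.88 for Il6, −1.32 to −0.95 for Socs3 and 0.75 to 1.06 for Osmr. The acinar covariate fit, which called no gene at all, gave 1.43 for Il6 (adjusted p = 0.351), 1.21 for Osmr (0.318) and −0.73 for Socs3 (0.447).

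**Figure D5:**
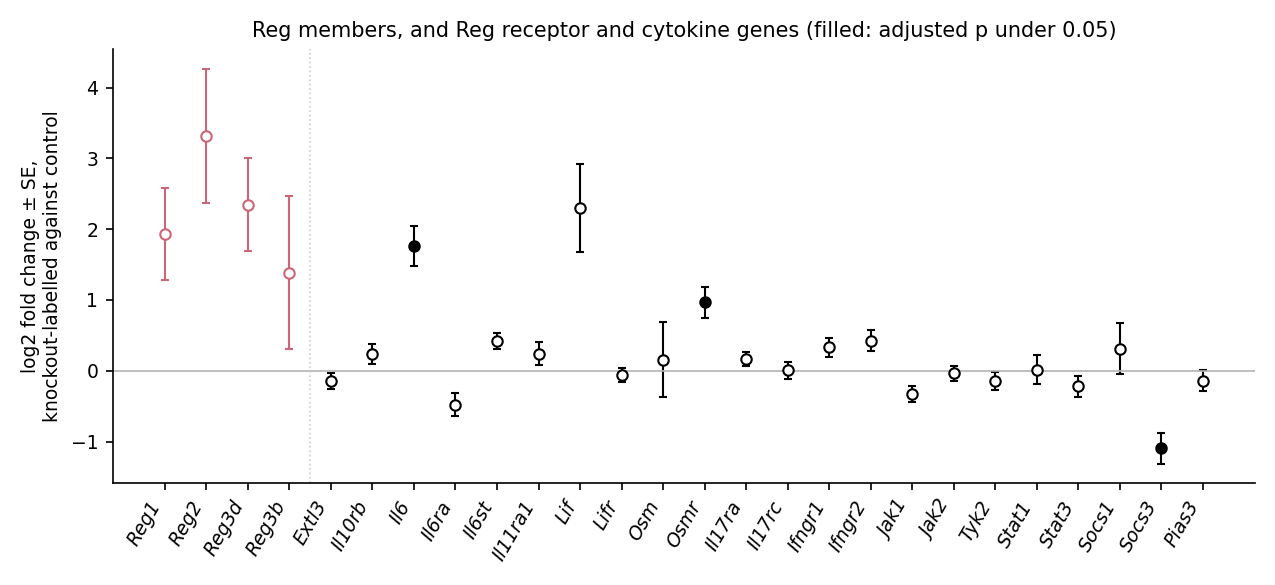
Log2 fold change ± SE (edgeR, 3 against 3 libraries) of the 4 tested Reg genes, left of the dotted line, and of 22 tested Reg receptor and cytokine genes, with filled points where the adjusted p was under 0.05. Il6 and Osmr are filled above 0 and Socs3 is filled below it, at −1.10.

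Markers of other cell types were compared in the same libraries, and their part in the Reg values was not tested. Among all 13736 tested genes, 4.14% rose and 361 fell. Of 9 macrophage genes 5 rose, 0 fell and 4 stayed uncalled, with sums of 131.9 to 141.2 CPM among controls, against 228 to 278 CPM in knockout-labelled libraries. Of 7 stromal genes 3 rose and 4 stayed uncalled (69.8 to 293 against 296 to 408 CPM), and of 5 endothelial genes 3 rose and 2 stayed uncalled (115.9 to 145 against 154 to 181 CPM). Among 6 tested lymphocyte genes, Cd4 alone rose, and it passed in 0 of 6 fits that left out 1 library (2.28 to 3.75, adjusted p = 0.0742 to 0.121). With 3, 7 and 1 counts in controls 1 to 3, Cd4 passed the filter on low counts only through the knockout-labelled libraries. Of 5 listed neutrophil genes, 4 were in the table and 0 were tested, Mpo and Elane had no counts, and the sums reached at most 0.564 CPM. The 1 tested intestinal gene, the brush-border gene Vil1, fell by 0.51 ± 0.09 on the log2 scale (adjusted p = 0.0198), and it passed in 3 of 6 such fits (−0.56 to −0.47). The 6 islet hormone genes, the defining transcripts of the labelled tissue, took 44.9% to 51.9% of counts, and none was called.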

How the data were processed

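Total RNA from islets was copied into cDNA by poly-dT priming with low-input amplification and sheared before library preparation, per the labels' protocols. The deposited table holds whole-number counts per gene, not normalized, with exon coordinates and gene length, per the file headers. Tools listed, per the submitters' processing notes, are STAR 2.4.2a and featureCounts with Subread 1.5.0, besides edgeR, and the build is mm10. For annotation, strand and multi-mapping, settings were not given in the sources used here. Gene length as deposited, in another unit (bp), was used for levels per kb.

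All genes were tested with edgeR 4.0.16 in R 4.3.3 (TMM factors, default expression filter, quasi-likelihood test, group as the only term), with Benjamini-Hochberg adjusted p-values over 13736 genes and a threshold of 0.05. SEs were derived from the F value. Alternatives were other scaling factors, filters, DESeq2 1.42.0, limma-voom (limma 3.58.1), a replicate block, an acinar covariate, other library totals and leaving out each library. The test was checked on simulated data. Coding sequences were aligned with Biopython 1.88.

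Named genes were the 7 members, up to 6 called genes from each list, a fixed set of pathway genes, and the 3 genes most like each tested member. Lif, Il22, Bhlha15, Nupr1, Krt19 and Krt7 were named after their values were seen. So were Cdx1, Cdx2, Muc2, Lgr5, Alpi, Saa2, Orm1, Lbp, Fgb, Junb, Cebpd, Mpo and Elane. The promoter motifs were also chosen after the windows were read. The members and lists were chosen with earlier results of these data known. No 2 libraries of a group agreed within sampling noise (chi-square per degree of freedom at least 10.8).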

Additional observations from a re-analysis of the deposited data

How the results depend on the processing

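Of 109 recomputed values, 84 were classed as the same as the main result, 17 as stronger, 2 as moved in size and 6 as reversed in sign. Shares and ratios had no test, so no threshold applied to them. RLE and upper-quartile factors, a filter at 1 CPM in 3 libraries, and leaving acinar, Reg and hormone genes out of the library totals called 0 members, as did the main settings; the 1 CPM filter removed Reg3b. The number of members called was 3 with no filter (Reg1 1.91, Reg2 3.30, Reg3d 2.33 on the log2 scale), 1 with DESeq2 (Reg3d 2.35) and 2 with limma-voom (Reg2 4.98, Reg3d 3.04). With the replicate number as a block it was 3 (Reg1 2.43, Reg2 3.87, Reg3d 2.62), with 539 of 13736 genes called higher. In that fit 826 genes were called in either direction, in place of 929, and Osmr, at 0.95 on the log2 scale, was not called (adjusted p = 0.0573). The labels do not say that numbers pair the libraries, and deviations of same-numbered libraries correlated at −0.04, −0.01 and 0.05, and libraries did not all correlate best with their own number. The acinar covariate turned Reg1 to −0.0398 and Reg3b to −2.03; the cause was not tested.

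Leaving out 1 library gave 0 to 1 members called, and log2 fold changes of 1.40 to 2.62 for Reg1, 2.70 to 8.66 for Reg2, 0.59 to 3.65 for Reg3b and 1.79 to 3.49 for Reg3d. The fitted 8.66 rests on controls without a count and is no bound. In the same fits, leaving out controls 1, 2 and 3 left 968, 99 and 216 genes called, and leaving out knockout-labelled replicates 1, 2 and 3 left 64, 719 and 344. The difference in the summed Reg share, 0.0240 percentage points, ranged from 0.0180 to 0.0277 in these fits and was 0.0449 with hormone genes left out of the total. For every 1000 acinar enzyme counts, the difference (knockout-labelled minus control) ranged from −1.95 to 0.887 for Reg1, with 0.887 without control 2 and 0.472 without knockout-labelled replicate 3, and from −0.0165 to 0.0193 for Reg3b, with 0.0193 without control 2 and 0.00793 without knockout-labelled replicate 1. It ranged from 0.0282 to 0.0631 for Reg2 and from 0.00858 to 0.0503 for Reg3d. Without trypsin, elastase and amylase genes the denominator is smaller, and the differences were 0.0779 for Reg2 (0.0448 with them), −0.914 for Reg1 (−0.515), 0.0450 for Reg3d (0.0261) and −0.00545 for Reg3b (−0.00292). Reg3a, Reg3g and Reg4 had fewer than 32 counts each in all. Without the filter, Reg3g was at 4.597 ± 1.36 (adjusted p = 0.0513) and Reg3a at 1.06 ± 1.39 (adjusted p = 0.675).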

Other observations

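Duct genes, which mark the epithelium next to acinar cells, were described with the same fit. Of 8 tested duct markers, 1 rose, 0 fell and 7 were not called, with a median log2 fold change of 1.31, where 4.14% of all tested genes rose. Osteopontin (Spp1) rose from 57.5 ± 27.4 to 165 ± 61.2 CPM (1.53 ± 0.35, adjusted p = 0.0350, edgeR). Keratin 19 (Krt19) had 365, 193 and 20 counts in controls 1 to 3 and 1938, 644 and 392 in the knockout-labelled libraries (2.42 ± 0.76, adjusted p = 0.0804). Its highest value was in knockout-labelled replicate 1, whereas Reg1 was highest in replicate 2. Keratin 7 (Krt7) was at 196 ± 34.2 and 198 ± 9.43 CPM (0.01 ± 0.14, adjusted p = 0.964). Leaving out 1 library at a time, Spp1 passed the threshold in 2 of 6 fits.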
